A study of Mus musculus with 2 samples.

Results

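Homeostatic microglia without damage-associated genes were examined in the injured mouse thalamus after local injection of control Ab or anti-CD9 Ab. Among 27418 cell barcodes in 2 single-cell libraries, 1324 cells met the rule for this state, 830 of 12245 under control Ab and 494 of 15173 under anti-CD9 Ab. A cell was taken when the unique molecular identifiers (UMIs, tags that count captured RNA molecules) of *P2ry12*, *Tmem119*, *Siglech*, *Gpr34*, *Fcrls* and *Sall1* summed to 3 or more. It also had to carry 0 UMIs of the damage-associated genes *Cst7*, *Lpl*, *Itgax* and *Igf1*, 0 of the macrophage genes *Ms4a7* and *F13a1*, and 0 of the T cell genes *Cd3d*, *Cd3e* and *Cd3g*. Cells with more than 2 UMIs of *Ifit2*, *Ifit3*, *Rsad2* and *Cxcl10*, or more than 1 of *Mki67* and *Top2a*, were left out. Only cells with 200 to 7500 detected genes and at most 5% mitochondrial UMIs were considered (kept cells, 11690 and 14455). The cells were therefore selected on measured values, and the levels of those genes describe the selection.

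The libraries came from CD45+ cells, that is, leukocytes and microglia, of the thalamus of C57B6/J mice, 12 weeks old by the study's reporting summary. All mice had received cortical ablation injury (CAI), the surgical removal of cortex, after which the thalamus is damaged at a distance. Control Ab, or a blocking antibody against the tetraspanin CD9, was given into the thalamus from day 7 to day 19, and cells were collected on day 21. There was 1 library per antibody. The methods give a pool of 4 mice for the thalamus and for the hippocampus, with no separate number for the antibody libraries. Antibody, pool of mice and library cannot be told apart, and no difference between the libraries could be tested. Intervals are 95% intervals that cover counting error only (exact binomial for shares, exact Poisson for levels, and Poisson errors of both counts for ratios). PCR copies are collapsed by the UMIs.

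Microglia are the resident macrophages of the brain. In healthy tissue they depend on signals through *Csf1r* and TGF-β, survey their surroundings with the purinergic receptor *P2ry12* and the fractalkine receptor *Cx3cr1*, and are marked by *P2ry12*, *Tmem119*, *Siglech*, *Gpr34* and *Sall1*. After injury, many microglia lower these genes and raise lipid, lysosome and phagocytosis genes (*Apoe*, *Spp1*, *Cst7*, *Lpl*, *Itgax*), a state called damage-associated. Interferons induce a further program, many of whose genes carry a DNA motif named ISRE.

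The ISRE motif was searched in promoters, because all measured genes of the interferon list stood higher under anti-CD9 Ab, as given further on. Of 32 genes in the interferon list, 23 matched a promoter in the RefSeq table (GRCm38.p6, 250 bases before to 50 after the start site). The motif, the letters GAAA, any 2 bases and GAAA again, on either strand, was present in 15 of those 23 (65.2%), against 1079 of 27025 genes of the table (3.99%), and in 1 of 20 homeostatic genes with a promoter (5%), 0 of 6 of MHC class II and 1 of 20 of the cytokine list. The 250 bases before the start of *Gbp2*, *Ifi207* and *Bst2* are shown because these were among the interferon genes named by the ranking used throughout. Capitals mark matches to the motif, which overlap in *Bst2*.
Gbp2 (chr3:142620413-142620662, plus strand): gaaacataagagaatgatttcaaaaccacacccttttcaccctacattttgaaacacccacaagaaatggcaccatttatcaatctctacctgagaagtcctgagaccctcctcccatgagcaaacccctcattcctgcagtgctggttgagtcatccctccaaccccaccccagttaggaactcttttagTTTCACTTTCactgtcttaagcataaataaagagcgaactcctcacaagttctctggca
Ifi207 (chr1:173741810-173742059, minus strand): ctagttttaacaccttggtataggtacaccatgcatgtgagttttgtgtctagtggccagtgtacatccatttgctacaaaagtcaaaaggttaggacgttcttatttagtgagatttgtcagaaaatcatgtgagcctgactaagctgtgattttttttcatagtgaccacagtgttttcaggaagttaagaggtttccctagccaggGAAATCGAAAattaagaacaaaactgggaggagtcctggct
Bst2 (chr8:71537473-71537722, minus strand): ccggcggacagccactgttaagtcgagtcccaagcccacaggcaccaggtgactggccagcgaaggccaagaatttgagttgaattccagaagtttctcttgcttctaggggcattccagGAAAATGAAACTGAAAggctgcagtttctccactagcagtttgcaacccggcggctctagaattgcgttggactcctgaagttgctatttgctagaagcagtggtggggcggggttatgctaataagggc
A second motif, that of the myeloid factor PU.1 (GAGGAAGT on either strand), was in 2 of the 20 homeostatic genes with a promoter (10%), *Ctss* and *Slco2b1*, against 997 of 27025 genes (3.69%). A match is a run of letters and was not tested as a binding site. Motif shares come from the reference promoters of the listed genes and not from the cells, so nothing about the antibody is read from them.

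The libraries stood apart in several respects that bear on the cells described. Total UMIs were 38042608 under control Ab and 40825201 under anti-CD9 Ab. Homeostatic cells under control Ab had a median of 1837.5 UMIs and 1194.5 genes (lowest 514 UMIs, highest 18175), and those under anti-CD9 Ab had 2898.5 UMIs and 1647.5 genes (lowest 505, highest 23114). Ribosomal protein genes took a median of 3.06% of a cell's UMIs under control Ab and 5.59% under anti-CD9 Ab, and mitochondrial genes 0.85% and 1.35%. T cells (3 or more UMIs of the Cd3 genes) made up 51.2% of kept cells under control Ab (5990 cells; 50.3 to 52.2%) and 20.6% under anti-CD9 Ab (2973 cells; 19.9 to 21.2%). Of the barcodes, 54 occurred in both libraries, and none was a homeostatic cell in both. Doublet scoring marked 24 of the 830 homeostatic cells (2.89%) and 39 of the 494 (7.89%), and they were kept in the values below.

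The label held for most of the cells. *Cx3cr1*, which was no part of the selection, was detected in 79.1% of homeostatic cells under control Ab (75.9 to 82.0%) and 67.1% under anti-CD9 Ab (62.6 to 71.3%) after each cell was thinned to 1000 UMIs. That left 703 and 468 cells, with 127 and 26 shallower cells left out. Without thinning the shares were 88.3% and 83.8%. Of the thinned cells, 95 under control Ab and 222 under anti-CD9 Ab held only 0 to 2 UMIs of the 6 homeostatic genes, under the rule's limit of 3. In T cells with none of the 6 homeostatic genes, which should mostly lack *Cx3cr1*, the thinned shares were 3.0% and 2.1% (median depth 1652 and 2408 UMIs), a background that free RNA can leave. Choosing them without these genes selects against cells that carry microglial RNA, and in all T cells the shares were 7.7% and 3.1% (median depth 1748 and 2522 UMIs). T cell levels below are those of these 4498 and 2537 cells. The complement gene *C1qa*, made by microglia and other macrophages, was detected in 96.0% and 91.5% of thinned homeostatic cells against 28.4% and 13.6% of those T cells and 34.9% and 16.3% of all T cells.

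A minority of the cells went against the label. *Siglech* is also made by plasmacytoid dendritic cells, and 10 cells under control Ab and 22 under anti-CD9 Ab met the rule through *Siglech* alone. These were 1.20% (0.579 to 2.20%) and 4.45% (2.81 to 6.67%) of the homeostatic cells. In them, *Ly6d* stood at 4890 and 4778 UMIs per 1000000 (CPM) in the control Ab and the anti-CD9 Ab library, against 81.8 and 195 in all other homeostatic cells. *C1qa* stood at 88.4 and 82.2 CPM against 6336 and 7286, and *Csf1r* at 29.5 and 0 CPM against 1183 and 904. The cells are kept under the rule and receive no name here. The genes that set them apart were chosen after their values were seen. Results without these cells are given below for the interferon list and a few genes only.

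Homeostatic cells made up a smaller share of the kept cells under anti-CD9 Ab and a larger share of the microglia. They were 7.10% of kept cells under control Ab (830 of 11690; 6.64 to 7.58%) and 3.42% under anti-CD9 Ab (494 of 14455; 3.13 to 3.73%). Among microglia, defined as cells with 3 or more homeostatic UMIs and no macrophage or T cell gene, they were 35.8% (830 of 2317; 33.9 to 37.8%) and 46.3% (494 of 1066; 43.3 to 49.4%). Damage-associated cells, which met the same limits except for 3 or more UMIs of *Cst7*, *Lpl*, *Itgax* and *Igf1*, were 43.1% of microglia under control Ab (999 cells; 41.1 to 45.2%) and 14.1% under anti-CD9 Ab (150 cells; 12.0 to 16.3%). Per 100 T cells there were 13.9 and 16.6 homeostatic cells. The share of kept cells moves with the T cells and other leukocytes in the same library, and the share of microglia moves with the limit on damage-associated genes and with depth: in cells thinned to 1000 UMIs, the rule took 47.2% and 77.2% of microglia.

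**Figure D1:**
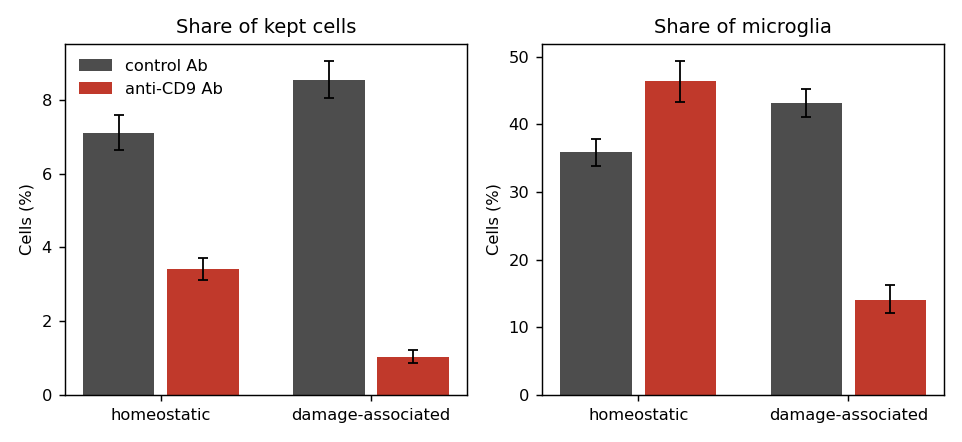
Homeostatic and damage-associated cells as a percentage of kept cells (left) and of microglia (right) under control Ab (grey) and anti-CD9 Ab (red); lines are exact 95% binomial intervals. Homeostatic cells were 7.10% and 3.42% of kept cells, and their share of microglia was 35.8% and 46.3%.

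From 3384 and 1597 kept cells with 3 or more homeostatic UMIs, the T cell limit removed 788 and 132 cells in the control Ab and the anti-CD9 Ab library, and the macrophage limit 279 and 399. The cycling limit then removed 33 and 48, and the interferon limit 102 and 153. The damage-associated limit, applied last, removed 1352 and 371 cells. In this order of limits it removed the most in the control Ab library, whereas the macrophage limit removed the most in the anti-CD9 Ab library. Around the limits the values graded. With control Ab, *Apoe*, a lipid carrier raised in reactive microglia, stood at 4252 CPM in the cells with 0 damage-associated UMIs, at 8618 in the 238 cells with 1 and at 20819 in the 999 cells with 3 or more. With anti-CD9 Ab these levels were 6448, 9070 (157 cells) and 23110 CPM (150 cells). At the homeostatic limit, *Cx3cr1* stood at 484 and 462 CPM in the 96 and 148 cells just under it, with a sum of 2, and at 700 and 737 CPM in the 67 and 68 cells just inside, with a sum of 3.

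Among the genes of the selection, each of the 6 homeostatic genes stood lower under anti-CD9 Ab, though *Tmem119* turned higher when the rule was applied to thinned cells. *P2ry12*, the ADP receptor that steers microglial processes, was at 1708 CPM under control Ab (1649 to 1768) and 883 under anti-CD9 Ab (837 to 932). *Gpr34*, a lysophosphatidylserine receptor, was at 1096 CPM (1049 to 1145) and 406 (375 to 439), and *Fcrls* at 667 (631 to 705) and 219 (197 to 244). *Fcrls* was more abundant in damage-associated cells, at 1544 and 901 CPM, whereas each of the other homeostatic genes of the rule was less abundant there. *Siglech* stood at 900 and 567 CPM, *Sall1*, a transcription factor that keeps microglial identity, at 329 and 217, and *Tmem119* at 394 and 336. The selection used these genes and the libraries differed in depth, so nothing is read from how these intervals lie. The ratio nearest to none was that of *Tmem119* (log2 ratio of anti-CD9 Ab over control Ab -0.23, -0.39 to -0.07). In thinned cells, *P2ry12* was detected in 78.8% (75.6 to 81.8%) and 59.6% (55.0 to 64.1%), *Gpr34* in 65.9% and 30.1%, and *Siglech* in 57.9% and 38.9%. The size of these ratios changed when the rule was applied to cells thinned to 1000 UMIs. The log2 ratios were then -1.07 for *Fcrls*, -0.78 for *Gpr34*, -0.43 for *P2ry12*, -0.27 for *Siglech*, -0.075 for *Sall1* and 0.37 for *Tmem119*, against -1.60, -1.43, -0.95, -0.67, -0.60 and -0.23 in all cells. For *Cx3cr1*, which the rule did not use, the ratio in thinned cells was -0.42. *Cst7*, *Lpl*, *Itgax* and *Igf1* were at 0 by selection.

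Genes of resting microglia that the selection did not use were also lower in most cases. For all genes outside the rule, counts were summed over the homeostatic cells of each library (1868728 UMIs under control Ab, 1540513 under anti-CD9 Ab), scaled to CPM, and compared as a log2 ratio where a gene had 50 or more UMIs in all. Over the 8096 genes measured, 3719 were higher under anti-CD9 Ab and the median log2 ratio was -0.04. At least 2-fold higher under anti-CD9 Ab were 297 genes (3.67%), and 350 (4.32%) were at least 2-fold lower. Among the 3483 genes with 200 UMIs or more these were 119 and 103. The counts over all genes are the background for the list counts below. Of the homeostatic list, 25 of 30 measured genes were lower and 5 higher, 5 of them at least 2-fold lower, with a median of -0.53. In damage-associated cells the median of the same list was -0.39, and in T cells without the homeostatic genes -0.27 (24 genes measured).

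*Cx3cr1* stood at 1812 CPM under control Ab (1751 to 1874) and 1323 under anti-CD9 Ab (1266 to 1382), a log2 ratio of -0.45. It was lower beyond counting error, as it was in damage-associated cells, at 1235 and 926 CPM. The fructose transporter gene *Slc2a5* was at 131 CPM in 184 cells and 41.5 CPM in 56 cells (log2 ratio -1.65, -2.05 to -1.25), and the uroplakin gene *Upk1b* at 35.9 CPM in 52 cells and 2.60 CPM in 4 cells (-3.79, -5.24 to -2.33). Against this direction, *Ctss*, the lysosomal protease cathepsin S, was at 4192 and 6343 CPM (0.60, 0.55 to 0.64) and the crystallin gene *Crybb1* at 115 and 184 CPM (0.69, 0.43 to 0.94). *Crybb1* was more abundant in homeostatic than in damage-associated cells of both libraries (log2 ratios 1.53 and 2.31), as was *Slc2a5* (1.75 and 1.74).

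**Figure D2:**
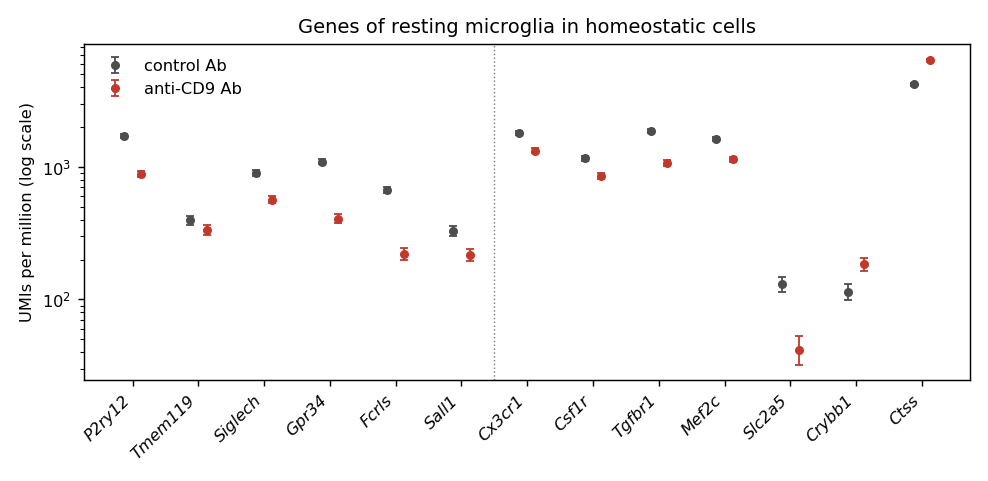
Levels of 13 genes in homeostatic cells, in UMIs per 1000000 on a log axis, under control Ab (grey) and anti-CD9 Ab (red); lines are exact 95% Poisson intervals. The genes left of the dotted line were used in the selection; all genes shown except *Crybb1* and *Ctss* were lower under anti-CD9 Ab (*Tmem119* not so in thinned cells), *P2ry12* at 1708 and 883 and *Cx3cr1* at 1812 and 1323.

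Receptors and factors that sustain microglia differed in both directions, each by less than 2-fold. *Tgfbr1*, the type I receptor for TGF-β, was at 1855 CPM under control Ab and 1072 under anti-CD9 Ab (log2 ratio -0.79, -0.87 to -0.71), and *Tgfbr2* at 680 and 584 (-0.22, -0.34 to -0.10). The inhibitory *Smad7* and *Nrros*, which presents latent TGF-β, were at 235 and 249 CPM and at 221 and 223 CPM, with intervals of the ratio that include 0. Of the 13 measured genes of the TGF-β list, 11 were lower, none by 2-fold (median -0.20). Over all genes, 3719 of 8096 were higher (median -0.04). *Csf1r*, the receptor for the survival factors CSF1 and IL-34, was at 1162 and 854 CPM (-0.44, -0.54 to -0.34), and the signalling adaptor *Pik3ap1* at 343 and 636 CPM (0.89, 0.75 to 1.03). Among transcription factors, *Mef2c* was at 1618 and 1140 CPM (-0.51), *Mef2a* at 1725 and 1295 (-0.41), *Zeb2* at 1876 and 2120 (0.18) and the inflammatory *Cebpb* at 173 and 337 (0.96, 0.76 to 1.16). None of 28 measured transcription factors passed 2-fold in either direction. Of 8 measured purinergic genes, 5 were lower and 3 higher, again none by 2-fold; *P2ry13* was at 158 and 96.1 CPM (-0.72) and the ATP channel *P2rx4* at 135 and 226 (0.74).

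Every measured gene of the interferon response was higher under anti-CD9 Ab in homeostatic cells. Of the 30 genes measured, 30 were higher and 25 at least 2-fold higher, against 3.67% of all genes, with a median log2 ratio of 1.63. The summed level of the list was 2227 CPM under control Ab and 5706 under anti-CD9 Ab. *Ifit2*, *Ifit3*, *Rsad2* and *Cxcl10* were limited by the selection and are not counted. In damage-associated cells the median was 0.75 (31 genes) and the sum 2839 and 4730 CPM. In T cells without the homeostatic genes the median was 0.13 (32 genes) and the sum 4568 and 5229 CPM. The difference between these cell groups was not tested.

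The guanylate-binding protein *Gbp2*, whose promoter is printed above, was at 9.1 CPM under control Ab and 142 under anti-CD9 Ab (log2 ratio 3.96, 3.25 to 4.67; 12 and 132 cells), with T cells at 46.1 and 111 CPM. *Iigp1*, an immunity-related GTPase, was at 8.0 CPM in 13 cells and 374 CPM in 153 cells (5.54, 4.80 to 6.28), while T cells stood at 168 and 141 CPM. The homeostatic cells under control Ab thus lay below the T cells of their own library in both genes, and under anti-CD9 Ab above them.

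*Bst2*, or tetherin, was at 272 and 562 CPM (1.05, 0.89 to 1.20), and *Ly6e*, at 650 and 974 CPM (0.58, 0.47 to 0.69), and *Phf11b*, at 29.97 and 45.4 CPM (0.60, 0.09 to 1.11), had the smallest ratios of the list. *Ifi207* stood at 17.1 and 130 CPM (2.93, 2.39 to 3.47) and its neighbour *Ifi211* at 2.7 and 29.9 CPM (3.48, 2.15 to 4.81). These belong to a family of closely related genes on chromosome 1, so the split of reads between them is uncertain. *Bst2* was also high in the Siglech-only cells, and without the cells carrying *Siglech* alone the median of the interferon list was 1.53.

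Antigen presentation genes were also higher. Of the 15 measured MHC class I genes, 15 were higher and 7 at least 2-fold higher (median 0.94). The MHC class II list also holds the costimulatory genes *Cd86* and *Cd80*. Of its 10 measured genes, 9 were higher and 5 at least 2-fold higher (median 1.58). Over all genes, 3719 of 8096 were higher and 3.67% at least 2-fold higher. The invariant chain *Cd74* was at 887 CPM in 319 cells under control Ab (845 to 930) and 3990 CPM in 417 cells under anti-CD9 Ab (3890 to 4091; log2 ratio 2.17, 2.09 to 2.25). *H2-Aa* was at 346 and 1600 CPM (2.21, 2.09 to 2.34), *H2-Eb1* at 233 and 1353 (2.54, 2.39 to 2.69), and *Ciita*, the master regulator of MHC class II, at 7.5 and 50.6 CPM (2.76, 1.94 to 3.58). The T cells held *Cd74* at 645 and 569 CPM and *H2-Aa* at 334 and 310 CPM, so their levels did not rise alongside. In T cells *H2-Eb1* was at 282 and 270 CPM and *Ciita* at 13.2 and 18.5 CPM. Mouse T cells should lack these genes. In homeostatic cells under control Ab, *H2-Aa*, *H2-Eb1* and *Ciita* lay close to the T cell levels or below. *Cd74* lay above its T cell level, at 887 against 645 CPM. The part of free RNA in these levels was not tested, so no exact size is read from any of these ratios. The costimulatory members of the list had the lowest ratios in it, with *Cd86* at 411 and 443 CPM (0.11, -0.04 to 0.26) and *Cd80* at 36.9 and 26.0 CPM (-0.51, -1.07 to 0.05). Markers of monocytes and dendritic cells were also higher, in 5 of 5 and 4 of 4 measured genes of their lists, given further on. Without the cells that held 2 or more UMIs of these markers, *Bst2* not counted (782 and 390 cells left), the MHC class II median was 1.92 and the interferon median 1.62.

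In thinned homeostatic cells, *Cd74* was detected in 28.7% under control Ab and 78.6% under anti-CD9 Ab, and in 77.9% and 87.3% of damage-associated cells. Thinned T cells without the homeostatic genes held it in 14.7% and 17.3%. For MHC class I, *H2-K1* was at 1563 and 3492 CPM (1.16, 1.09 to 1.22), its light chain *B2m* at 1386 and 3089 (1.16, 1.09 to 1.23), and the class I regulator *Nlrc5* at 49.2 and 192 (1.96, 1.63 to 2.30), while *H2-M3* was at 126 and 149 (0.25, -0.01 to 0.51). The MHC class II median was 0.89 when only cells with 3 to 6% ribosomal protein UMIs were compared (328 and 235 cells), and 1.01 when rule and levels were taken from cells thinned to 1000 UMIs. Ribosomal protein genes moved with these groups: 80 of 81 were higher under anti-CD9 Ab (median 0.84, summed level 39609 and 66250 CPM), against a median of 0.13 in T cells. Their part in the result was not tested beyond the comparison at a matched share, where the interferon median was 1.57.

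**Figure D3:**
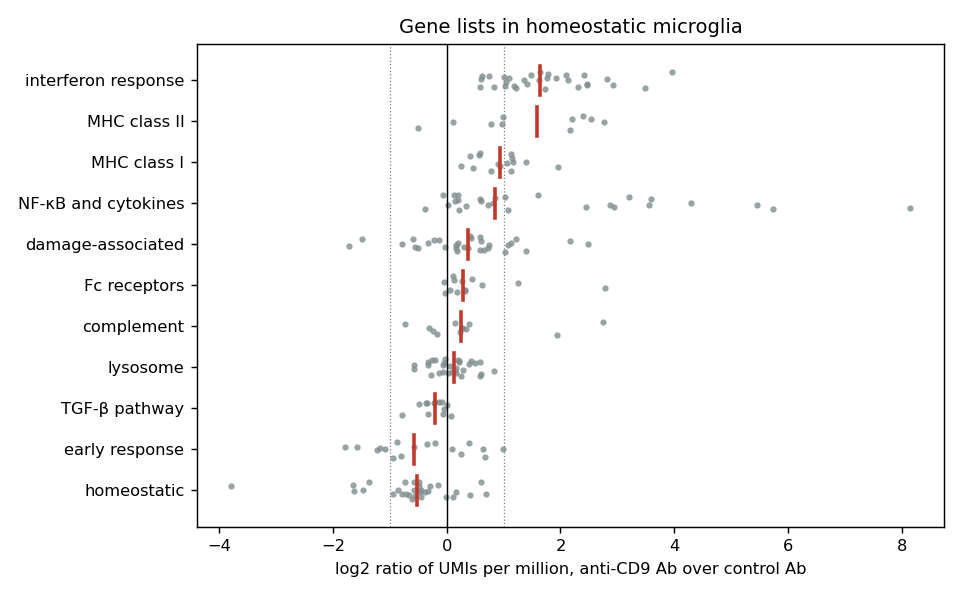
Each point is a gene with 50 or more UMIs, placed by the log2 ratio of its level under anti-CD9 Ab over control Ab in homeostatic cells; red bars are list medians and dotted lines mark 2-fold. The 30 interferon genes all lie right of 0 (median 1.63) and 25 of 30 homeostatic genes lie left of it (median -0.53).

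Chemokines and inflammatory genes were higher in most cases, though several of them were as high in T cells. Of the 27 measured genes of the NF-κB and cytokine list, 25 were higher and 13 at least 2-fold higher (median 0.86). The median was 1.15 in T cells without the homeostatic genes and 0.40 in damage-associated cells. *Ccl12*, a monocyte-attracting chemokine, was at 138 CPM in 151 cells and 1009 CPM in 264 cells (2.87, 2.68 to 3.06), with T cells at 9.3 and 18.8 CPM. Its relative *Ccl7* was at 1.1 CPM in 2 cells and 57.1 CPM in 30 cells. *Cxcl13*, which attracts B cells, was at 36.9 CPM in 20 cells and 434 CPM in 77 cells, with T cells at 4.5 and 22.3 CPM. The log2 ratio of *Cxcl13* was 3.56, and as low as 1.95 among the alternatives. Levels of these 3 in homeostatic cells exceeded those in T cells of the same library under anti-CD9 Ab.

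*Cxcl2*, a neutrophil-attracting chemokine, was at 1.6 CPM in 2 cells and 456 CPM in 71 cells, but T cells stood at 2.2 and 328 CPM and 1 homeostatic cell held 47.3% of the UMIs under anti-CD9 Ab. The cytokine *Il1b* was at 8.0 and 156 CPM, with T cells at 5.6 and 203. *Ccl5*, which T cells make, was at 50.3 and 606 CPM, with T cells at 936 and 1175. The acute phase gene *Saa3* was at 57.8 CPM in 40 cells and 1343 CPM in 294 cells (4.54, 4.26 to 4.82), with T cells at 21.4 and 716 CPM, and *Acod1* at 3.2 and 110 CPM, with T cells at 3.3 and 138. T cells should lack *Il1b* and *Acod1*. Under anti-CD9 Ab both lay below their T cell levels, so no size is read from their differences. For these genes, and for *Cxcl2* and *Saa3*, which T cells should lack too, the part of free RNA was not tested. Without predicted doublets, the median of the cytokine list was 0.25 and *Ccl4* turned from 1.07 to -0.23.

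Immunoglobulin receptors were examined because both libraries came from mice given antibody. *Fcgr4*, an activating receptor for IgG, was at 36.4 CPM in 58 cells under control Ab and 249 CPM in 200 cells under anti-CD9 Ab (log2 ratio 2.78, 2.40 to 3.15), and the inhibitory *Fcgr2b* at 192 and 460 CPM (1.26, 1.08 to 1.44). The shared signalling chain *Fcer1g* was at 1315 and 2027 CPM (0.62, 0.55 to 0.70). Of the kinases and phosphatase behind these receptors, *Lyn* was slightly higher, at 1255 and 1548 CPM (0.30, 0.22 to 0.38), while the intervals of a phosphatase and a further kinase included 0, *Inpp5d* at 1557 and 1507 (-0.05, -0.13 to 0.03) and *Btk* at 146 and 142 (-0.03, -0.29 to 0.22). Of the 14 genes of this list, 12 were higher and 2 of them, *Fcgr4* and *Fcgr2b*, passed 2-fold. *Fcgr4* was at 74.0 and 258 CPM in damage-associated cells and at 2.1 and 16.4 CPM in T cells.

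Complement genes differed in both directions. The C1q subunits, made by microglia throughout the brain, were slightly higher in all cells: *C1qa* at 6222 and 6888 CPM (0.15, 0.11 to 0.18), *C1qb* at 4024 and 4741 (0.24) and *C1qc* at 4036 and 4839 (0.26). Among cells with 3 to 6% ribosomal protein UMIs their signs turned, to -0.089, -0.094 and -0.030. *C4b* was at 18.2 and 123 CPM (2.75, 2.23 to 3.28) and *C3* at 14.5 and 55.2 CPM (1.93, 1.31 to 2.56), whereas the regulator *Cr1l* was lower (-0.31). Of the 12 measured, 8 were higher and 4 lower (median 0.25, or -0.060 among cells with 3 to 6% ribosomal protein UMIs). Among receptors for uptake, *Trem2* was at 1350 and 904 CPM (-0.58), *Mertk* at 1390 and 1305 (-0.09), the inhibitory lipid receptor *Cd300lf* at 16.6 and 182 CPM (3.45, 2.92 to 3.99) and the scavenger receptor *Cd36* at 5.9 CPM in 7 cells and 56.5 CPM in 53 cells (3.26, 2.36 to 4.17). Of the 16 measured, 11 were lower and 5 higher, with 1 and 2 past 2-fold. Of 30 lysosomal genes, 18 were higher and 12 lower, none by 2-fold (median 0.12, or -0.050 among cells with 3 to 6% ribosomal protein UMIs). Over all genes, 3719 of 8096 were higher (median -0.04).

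Damage-associated genes that the selection did not use divided between the libraries. The list summed to 22070 and 28698 CPM in homeostatic cells, against 101755 and 97850 CPM in damage-associated cells. Of the 31 measured, 21 were higher under anti-CD9 Ab and 10 lower, 7 and 2 of them by at least 2-fold (median 0.38, or 0.12 among cells with 3 to 6% ribosomal protein UMIs). *Cd72*, an inhibitory lectin, was at 39.6 and 221 CPM (2.48, 2.12 to 2.85) and *Lilrb4a* at 9.1 and 40.9 CPM (2.17, 1.40 to 2.94). T cells stood at 43.2 and 34.5 CPM for *Cd72* and at 21.7 and 47.5 CPM for *Lilrb4a*. Only the level of *Cd72* under anti-CD9 Ab exceeded that of T cells, so no exact size is read from either ratio. *Apoe* was at 4252 and 6448 CPM (0.60, 0.56 to 0.64), and the ferritin heavy chain *Fth1* at 2737 and 6373 CPM (1.22, 1.17 to 1.27), with T cells also higher in *Fth1*, at 3068 and 5817 CPM. *Ctsd*, a lysosomal protease, was at 3341 and 3032 CPM (-0.14, -0.19 to -0.09). *Ank*, a phosphate transporter, was at 99.5 and 35.7 CPM (-1.48, -1.91 to -1.05), with T cells at 63.6 and 44.5 CPM. Its level under anti-CD9 Ab lay below that of T cells, so no exact size is read from this ratio. *Spp1*, or osteopontin, was at 1260 CPM in 663 cells and 385 CPM in 162 cells, but T cells stood at 1409 and 236 CPM, and 1 homeostatic cell held 27.0% of the UMIs under anti-CD9 Ab. In thinned cells *Spp1* was detected in 55.9% and 13.9% of homeostatic cells (52.1 to 59.6% and 10.9 to 17.4%) and in 61.6% and 12.1% of T cells (60.1 to 63.0% and 10.8 to 13.5%). The homeostatic level lay below that of T cells under control Ab and above it under anti-CD9 Ab, and detection lay near theirs in both libraries. The part of free RNA in these levels was not tested, and nothing is read from the ratio.

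*Cd9*, the target of the antibody, was at 1716 CPM under control Ab (1657 to 1776) and 1164 under anti-CD9 Ab (1111 to 1219), a log2 ratio of -0.56. It was detected in 74.1% and 61.8% of thinned homeostatic cells, and in 14.3% and 7.9% of T cells. In damage-associated cells it stood at 5153 and 3447 CPM. A blocking antibody acts on the protein, which the libraries did not measure. Of the other tetraspanins, *Cd81* was at 1946 and 1773 CPM (-0.13) and *Cd63*, found in late endosomes, at 549 and 915 CPM (0.74, 0.62 to 0.85); none of 14 passed 2-fold.

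Early response genes, which also rise when tissue is dissociated, differed in both directions. Of the 17 measured, 11 were lower under anti-CD9 Ab and 6 higher (median -0.58), against 3719 higher of all 8096 genes, and 5 were at least 2-fold lower, against 4.32% of all genes. *Jun* was at 765 CPM in 512 cells and 223 CPM in 188 cells (-1.78, -1.95 to -1.61), *Jund* at 679 and 229 CPM (-1.57, -1.74 to -1.40) and the antiproliferative *Btg2* at 867 and 386 CPM (-1.17, -1.30 to -1.03). The chaperone *Hspa8* went the other way, at 222 and 440 CPM (0.99, 0.81 to 1.17). T cells held *Jund* at 716 and 717 CPM and *Jun* at 120 and 86.7 CPM.

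The largest ratios of single genes belonged to other cell types in several cases. Several rested on single cells: 99.9% of the *Iglc1* UMIs under anti-CD9 Ab (5388 CPM), 99.8% of *Ighg3* and 96.6% of *Ighg1* lay in 1 cell each, and 94.1% of the *Camp* UMIs under control Ab lay in 1 cell. *Igha*, with the lowest ratio of all ranked genes (-5.27), was detected in 44 cells under control Ab with 53.3% of its UMIs in 1 of them, and *Ighg2b* (-4.03) in 39 cells with 49.4% in 1. *Igha* turned to 0.21 without cells that carried markers of B cells, neutrophils or neural cells and to 0.26 without those with monocyte or dendritic cell markers. *Igkc* was detected in 511 homeostatic cells under control Ab (20585 CPM) and 254 under anti-CD9 Ab (3253 CPM), while T cells stood at 12206 and 2484 CPM. The B and plasma cell list summed to 23945 and 4008 CPM, the neutrophil list to 1176 and 610, and the T cell list, limited by the rule, to 79.2 and 46.7. Of the macrophage and monocyte list, *Cd163*, *Lyve1*, *Cbr2* and *Cd209f* were at 0 in both libraries, and the list summed to 437 and 791 CPM, *Plac8* being its most abundant member. Its 5 measured genes were higher under anti-CD9 Ab, 3 of them at least 2-fold (median 1.10). *Tgfbi* stood at 25.2 and 61.0 CPM and *Ly6c2* at 86.2 and 184 CPM. Without the cells carrying *Siglech* alone, *Ly6c2* stood at 51.2 and 66.7 CPM and *Plac8* at 166 and 202 CPM. *Ccr2* turned from a log2 ratio of 1.28 to -0.0056 at a homeostatic sum of 5 or more. In the dendritic cell list *Ccr7* was at 0 and *Bst2* the most abundant, and the list summed to 373 and 753 CPM. Its 4 measured genes were higher, 3 at least 2-fold (median 1.07), but *Bst2* is also in the interferon list.

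Most of the lowest ratios were adhesion and membrane genes of neurons and glia. *Lsamp* was at 336 CPM in 65 cells under control Ab and 22.1 CPM in 18 cells under anti-CD9 Ab (-3.93, -4.43 to -3.43), and T cells stood at 118 and 26.1 CPM. *Gpc5*, *Tmeff2*, *Adgrb3*, *Ntm*, *Cadm2*, *Slc24a2* and *Pcdh9* ran from -3.88 to -3.37 and were lower in T cells as well. *Pcdh9* turned to 0.28 among cells with 3 to 6% ribosomal protein UMIs. The astrocyte list summed to 508 and 473 CPM, mostly of *Slc1a3* (345 and 454), with *Slc1a2* at 58.9 and 7.8. The oligodendrocyte list summed to 374 and 138 CPM, *Mbp* being the most abundant, and of the neuron list *Slc17a6*, *Gad1* and Nrgn were at 0. These values moved with the library in T cells too, and their part in the results was not tested beyond leaving such cells out. Without cells that carried markers of B cells, neutrophils or neural cells (772 and 436 cells left), the medians of the homeostatic and interferon lists were -0.61 and 1.49.

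Within each library, the genes that varied most between homeostatic cells again included those of other cell types, together with *Apoe*. In cells thinned to 1000 UMIs, the ratio of variance to mean of *Igkc* was 427 under control Ab and 180 under anti-CD9 Ab, and *Jchain*, *Igha*, *S100a8*, *S100a9* and *Slpi* were among the 10 highest under control Ab through 8 to 45 cells each. *Apoe* was detected in 476 of 703 cells (ratio 20.2, at most 111 UMIs in a cell) and in 366 of 468 cells (19, at most 93). It was the only gene detected in most of the cells among the 10 highest of either library. *Cxcl2* and *Ccl4* were among the 10 under anti-CD9 Ab, detected in 29 and 80 cells.

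The per-cell sums show how widely the differences were shared. The homeostatic list without the rule's genes summed to a median of 30 UMIs per 1000 under control Ab (5th to 95th percentile 9.1 to 46) and 24 under anti-CD9 Ab (6 to 41). The interferon list had a median of 2 UMIs (0 to 6) and 5 (1 to 11), and 21.2% and 3.85% of cells had none. The MHC class II list had a median of 1 UMI (0 to 8) and 6.5 (0.35 to 26), and 29.2% and 5.13% of cells had none. The distributions overlapped for all 3 lists. In T cells without the homeostatic genes the interferon median was 4 in both libraries and that of MHC class II 0.

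**Figure D4:**
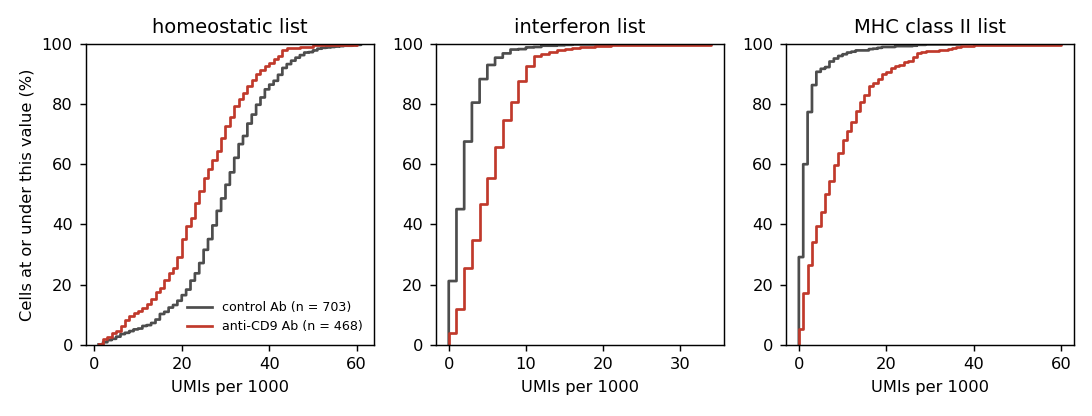
Cumulative share of homeostatic cells (vertical axis, %) with at most a given number of UMIs of a list per 1000 UMIs (horizontal axis), control Ab grey (703 cells) and anti-CD9 Ab red (468 cells). The red curve lies left of the grey for the homeostatic list (medians 24 and 30) and right of it for the interferon (5 and 2) and MHC class II lists (6.5 and 1).

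Cells with 3 to 10 UMIs of the rule's genes also differed between the libraries when grouped by those UMIs. When thinned cells were divided by the summed UMIs of the rule's 6 genes, 284 cells under control Ab and 195 under anti-CD9 Ab had 3 to 5. In these the interferon list stood at 2215 and 5508 CPM and the MHC class II list at 2303 and 8364 CPM. Among cells with 6 to 10 (281 and 48), the interferon list stood at 1893 and 3938 CPM and MHC class II at 1388 and 5792 CPM. Within each library both lists were lower at 6 to 10 than at 3 to 5, and MHC class I followed the same order, at 5996 and 4658 CPM under control Ab and 11236 and 10000 CPM under anti-CD9 Ab. The homeostatic list, which holds none of the 6 genes, was not matched between the libraries by this grouping. It stood at 28761 and 24897 CPM at 3 to 5, and at 32975 and 29312.5 CPM at 6 to 10. At 11 or more there were 43 and only 3 cells, and the interferon list stood the other way, at 1860 (1475 to 2316) and 1333 CPM (363 to 3414), while MHC class II stood at 1372 and 5333 CPM. Among the 95 and 222 cells with 0 to 2, the interferon list stood at 3253 and 5707 CPM and MHC class II at 4284 and 9824 CPM.

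Homeostatic cells were last set beside the damage-associated cells of the same library, a contrast that the selection itself fixed in part. With control Ab, 455 of 10068 genes (4.52%) were at least 2-fold higher in homeostatic cells and 368 (3.66%) at least 2-fold lower. With anti-CD9 Ab these were 362 (5.56%) and 115 (1.77%) of 6505 genes. The median over all genes was 0.23 in both, and depth differed (damage-associated cells had a median of 4365 and 4559 UMIs). The values are a description of the selected groups.

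*Spp1* was at 34071 and 28979 CPM in damage-associated cells (log2 ratio of homeostatic over damage-associated cells -4.76 under control Ab and -6.23 under anti-CD9 Ab). As detection of *Spp1* in homeostatic cells lay near that in T cells of both libraries, no exact size is read from either ratio. The ratios of *Fabp5*, which binds fatty acids, were -3.21 and -2.96, those of the growth factor *Csf1* -3.25 and -2.74, those of the lectin *Clec7a* -2.60 and -2.31, and those of the metalloproteinase inhibitor *Timp2* -2.22 and -2.49. *Apoe* (-2.29 and -1.84), *Cd9* (-1.59 and -1.57) and the glycolytic genes *Aldoa* (-1.75 and -1.47) and *Tpi1* (-1.72 and -1.55) were also among the 12 farthest below. Of the glycolysis and hypoxia list, 16 of 18 measured genes were lower under control Ab and 14 of 16 under anti-CD9 Ab. Over all genes, 3262 of 10068 and 2037 of 6505 were lower. On the other side, the calcium channel subunit *Cacnb2* (1.75 and 2.12), *Gm35188* (1.69 and 1.64) and *Crybb1* stood higher in homeostatic cells, while the other genes among the 12 highest included those of other leukocytes, such as *Ly6d*, *Ly6c2*, *Plac8*, *Ly6a*, *Igkc* and *S100a8*.

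Lists that set the libraries apart also differed between the cell groups. Genes of the MHC class II list were lower in homeostatic than in damage-associated cells under control Ab (9 of 10 genes, median -1.34, 6 of them at least 2-fold) and under anti-CD9 Ab (10 of 10, median -0.71, none by 2-fold). For the interferon list, 23 of 30 genes were lower in homeostatic cells under control Ab (median -0.38), against 3262 of all 10068 genes measured (median of all genes 0.23). Under anti-CD9 Ab, 23 of 29 were higher (median 0.34), but so were 4468 of all 6505 genes (median 0.23), so this count lies near the background and the list is not read as standing higher there. The difference in the interferon list between the libraries was not tested. For early response genes, 13 of 17 (median 0.52) and 13 of 16 (median 0.40) were higher in homeostatic cells. These shares were near those of all genes, of which 6806 of 10068 were higher under control Ab. At least 2-fold higher were 4 of the 17 and 3 of the 16, against 4.52% and 5.56% of all genes, which was not tested. Of the TGF-β list, 13 of 13 (median 0.38) and 12 of 13 (median 0.42) were higher.

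**Figure D5:**
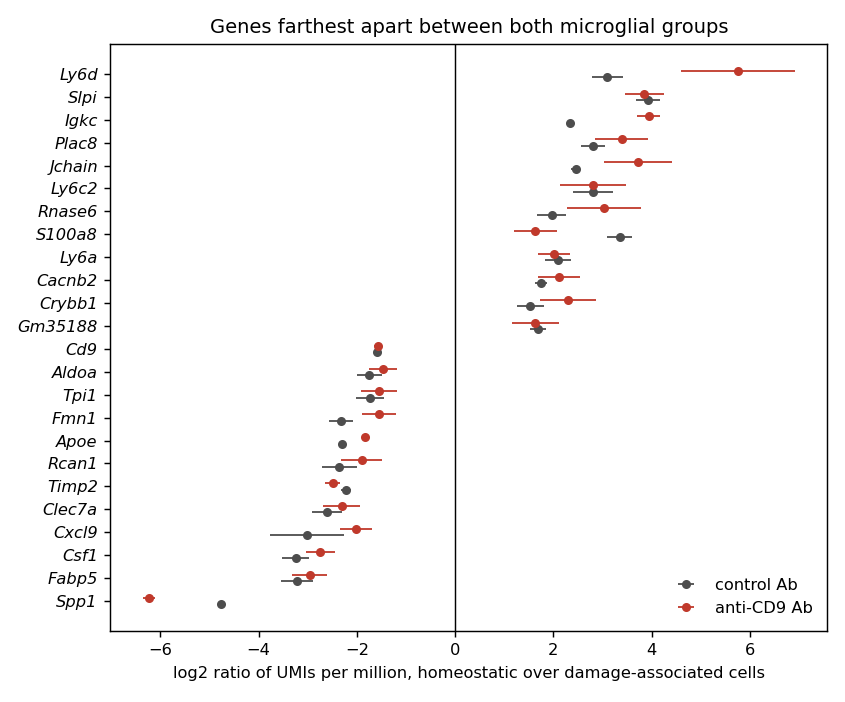
Genes farthest apart between homeostatic and damage-associated cells (log2 ratio of UMIs per 1000000 on the horizontal axis), under control Ab in grey and anti-CD9 Ab in red; lines are 95% intervals from counting error. *Spp1* lies farthest left (-4.76 and -6.23), with detection in homeostatic cells near that in T cells of both libraries. *Cacnb2*, *Gm35188* and *Crybb1* lie right of 0 beside genes such as *Ly6d* and *Igkc*.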

How the data were processed

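CD45+ thalamic cells of both antibody groups were measured by 10x Genomics 3′ v3.1 scRNA-seq. The deposited matrices hold raw UMI counts per gene and barcode (33696 genes). Per the labels the authors used Cell Ranger 8.0.0 and GRCm39, whereas the study's methods name another version and GRCm38, so no coordinate was taken from the files. Levels are summed counts per 1000000, compared as log2 ratios where a gene had 50 UMIs or more in all. A count of 0 was set to a floor of 3 counts over the group, and the ratio is then a bound; 26 repeated symbols were kept apart. Cells, levels and intervals were computed with NumPy 2.4.6 and SciPy 1.17.1 in Python, and the code was tested on simulated data. The members and lists were chosen with earlier results of these data known. Genes named were the rule's genes, the 12 highest and 12 lowest ratios (200 UMIs or more), 2 at each end and the 3 most abundant of each list, the 12 farthest from damage-associated cells in each direction, and the 10 most variable per library. Doublets were scored from simulated pairs among 30 neighbours and left out only as an alternative. With 1 library per antibody no test was made. Some genes that this rule names are not reported here.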

Additional observations from a re-analysis of the deposited data

How the results depend on the processing

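The homeostatic list kept its direction in the 13 alternatives (median log2 ratio -0.62 to -0.42), as did the interferon list (1.31 to 1.77), and the damage-associated median was 0.12 among cells with 3 to 6% ribosomal protein UMIs. This alternative, and those without markers of other cell types, without monocyte or dendritic cell markers or without cells of *Siglech* alone, were chosen after seeing the data. The homeostatic share of kept cells with control Ab was 9.47% at a mitochondrial limit of 2%, 8.88% in cells thinned to 1000 UMIs, 5.89% at a homeostatic sum of 5 or more, 9.14% with up to 1 damage-associated UMI, 7.64% without predicted doublets and 6.60% without markers of other cell types. With anti-CD9 Ab it was 3.99%, 2.55%, 4.50% and 3.02% at the mitochondrial, homeostatic, damage-associated and other-marker settings. The share of microglia was 40.2% and 50.8% (control Ab and anti-CD9 Ab) at the mitochondrial limit, 47.2% and 77.2% in thinned cells, and 46.1% and 61.1% with up to 1 damage-associated UMI. With control Ab it was 33.5% at a homeostatic sum of 5 and 39.1% without other markers. Genes at least 2-fold higher and lower numbered 504 and 795 from 20 UMIs, 119 and 103 from 200 UMIs, 123 and 163 in thinned cells and 168 and 135 at the matched ribosomal share, settings that test other numbers of genes or cells. Among named genes past 2-fold and the lists, signs turned for *Slpi* (-0.61) and *Ccr2* (-0.0056) at a homeostatic sum of 5, *Slpi* (-2.80) and *Igha* (0.26) without monocyte or dendritic cell markers, *Ccl4* (-0.23) without doublets, *Igha* (0.21) and *Jchain* (2.14) without other markers, and the complement (-0.060) and lysosome (-0.050) medians and *Pcdh9* (0.28) at the matched ribosomal share; the cause was not tested. Of 76 named genes past 2-fold, 70 kept their sign in all alternatives run. Of 95 named genes under 2-fold, 28 turned in at least 1, *Tmem119*, *Tgfbr2* and the C1q genes among them. The depth of 1868728 and 1540513 UMIs gave a median half-width of 0.45 for a log2 ratio, and with 1 library per antibody neither leaving out a replicate nor a test was possible. No paired analysis was possible because each antibody has 1 library.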
